A study of Mus musculus with 24 samples.

Results

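The genes described here encode the core of the spliceosome and the proteins that steer it. They were taken by symbol, as the gene rows of the Srsf, Sf3a, Sf3b, Snrp, Hnrnp and Prpf series, leaving out 5 rows whose symbol marks a pseudogene with "-ps". This gave 66 of 55291 gene rows, made up of 20 Hnrnp, 13 Prpf, 13 Snrp, 11 Srsf and 9 Sf3 genes. GENCODE vM21 lists 65 of them as protein-coding and Snrpert as a processed pseudogene.

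Splicing removes introns from precursor RNA in stepwise assemblies of small nuclear ribonucleoproteins (snRNPs). U1 pairs with the 5′ splice site, and U2 with its SF3A and SF3B complexes holds the branch site. The U4/U6.U5 tri-snRNP brings several PRPF proteins that drive activation and catalysis. SR proteins bind exonic enhancers and mostly promote use of nearby sites, whereas hnRNPs coat nascent RNA and often act against SR proteins. In the mouse embryo, RNA made by the oocyte is replaced around the 2-cell stage by RNA transcribed from the embryo's own genome, and this supply has to be spliced.

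Total RNA was sequenced from embryos of 8-week-old B6D2F1 parents, injected as zygotes in the male pronucleus with antisense oligonucleotides (ASOs) at 20 µM. Control (Ctrl) zygotes received a scrambled ASO and MERVL-KD zygotes a mixture of 3 ASOs against MERVL, an endogenous retrovirus active at the 2-cell stage. Embryos were taken at the 2-cell stage (1.5 days post coitum) and at the 4-cell and 8-cell stages (both labelled 2.5), as 2 libraries per group and 12 in all, each of 30 embryos without zona pellucida. The labels name the strain background BDF2. Libraries held 28167085 to 41482526 counts. MERVL-int, the internal part of MERVL, made up 6.33% and 6.57% of counts of control 2-cell embryos but 0.157% and 0.143% of those of MERVL-KD, and its share was lower in MERVL-KD at both later stages too. Every oocyte marker looked for (Zp3, Gdf9, Bmp15, Nlrp5, Zar1) had counts in every library, and 10 markers of cumulus and granulosa cells summed to 0.564 to 4.43 CPM (counts scaled to an equal depth per library), with 1 to 8 of the 10 at a count of 0 in each library.

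Each gene was compared between groups with edgeR's quasi-likelihood test. A gene is said to be higher or lower, or to have risen or fallen, where its p-value, adjusted by Benjamini-Hochberg over all genes and repeat families tested, was under 0.05. Changes are log2 fold changes ± standard error. Levels are CPM on 1 scale set over the 12 libraries, whereas each fold change comes from a fit of its own stage. At the 2-cell stage the log2 ratio of the CPM lies 0.08 below the fitted change. Of the 66 genes, 65 entered every comparison. Srsf12, an SR protein gene, had 0 to 11 counts per library and was not tested.

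One of the 66 genes carried a site for a MERVL ASO. The genome (GRCm38.p6) was searched for the sequences that the ASOs would pair with, allowing 2 mismatches over their 20 bases. MERVL-ASO1 had 782 such sites, MERVL-ASO2 381, MERVL-ASO3 740 and the scrambled ASO 1. Of all genes tested at the 2-cell stage, 156 held a MERVL ASO site on the sense strand, 125 on the antisense strand alone and 20323 none. The site in Prpf18, whose product acts in the second catalytic step, lay in sense orientation in the intron between exons 4 and 5 of the 10-exon transcript Prpf18-201, at chr2:4642663-4642682 on the minus strand, 969 bases downstream of exon 4. Prpf18 spans chr2:4622058-4652113. The sequences below show the oligonucleotide, its full target and the Prpf18 site, each 5′ to 3′, with the differing position in capitals, followed by the site in capitals within 15 bases of intron on each side (chr2:4642648-4642697).
MERVL-ASO1: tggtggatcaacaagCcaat
Target of MERVL-ASO1: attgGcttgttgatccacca
Prpf18 intron site: attgActtgttgatccacca
Prpf18 intron: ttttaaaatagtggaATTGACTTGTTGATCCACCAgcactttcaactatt
The difference is G5A, counted from the 5′ end of the target. The nearest site to any other of the 66 genes was 26714 bases from Sf3b4. With up to 4 mismatches, 4 more genes had a site. Those of Hnrnpd (intron), Sf3a1 (exon) and Snrpa1 (intron) lay on the antisense strand and that of Snrpn (intron) on the sense strand.

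Prpf18 fell in MERVL-KD embryos at all 3 stages and was the most changed of the 65 genes at the 4-cell and 8-cell stages. At the 2-cell stage it stood at 65.4 and 71.5 CPM in the control libraries and at 47.3 and 44.9 CPM in MERVL-KD, a change of -0.49 ± 0.11 (adjusted p = 0.00596). At the 4-cell stage the controls held 88.7 and 82.4 CPM and the MERVL-KD libraries 12.3 and 8.91 CPM, which is 8.01-fold lower. That change was -3.00 ± 0.17 (adjusted p = 1.23e-06). At the 8-cell stage 108 and 101 CPM stood against 19.9 and 16.3 CPM, 5.77-fold lower, with a change of -2.53 ± 0.13 (adjusted p = 5.74e-07). The groups did not overlap at any stage. Of all genes tested, 33.7%, 26.4% and 25.9% also lay wholly lower in MERVL-KD at the 3 stages in order. The fall was deeper at the 4-cell than at the 2-cell stage, with a difference in effect of -2.44 ± 0.20 (adjusted p = 5.96e-07), while the later 2 stages differed by 0.47 ± 0.20, which did not pass (adjusted p = 0.353). Each fall was called in the 4 fits of its stage that left out a library, and so was the difference between the 2-cell and 4-cell stages in its 8. Over all genes tested with a sense-strand MERVL ASO site, 77 of 156 were lower at the 2-cell stage, 71 of 147 at the 4-cell stage and 57 of 141 at the 8-cell stage. Of genes with a site on the antisense strand alone 12.8%, 10.7% and 8.74% were lower, and of genes with no site 7.04%, 5.49% and 3.25%. Sites anywhere in the gene body were counted, in exons or introns. Genes made of MERVL copies or running through them were not set apart, so their falls can be those of MERVL itself. These counts therefore do not tell what a single intron site does. Whether the ASO acts on Prpf18 RNA was not tested, and gene-level counts do not say which part of the transcript the reads came from.

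Hnrnpc and Srsf7 were also lower at every stage. Hnrnpc, whose product binds uridine tracts on nascent RNA, had 313 and 326 CPM in control and 221 and 250.1 CPM in MERVL-KD embryos at the 2-cell stage. It then had 492 and 486 against 362 and 374 CPM in 4-cell embryos, and in 8-cell embryos 596 and 619 against 442 and 502 CPM. Its changes were close to each other, at -0.36 ± 0.09, -0.40 ± 0.08 and -0.36 ± 0.08 (adjusted p = 0.0105, 0.0101 and 0.0309). Srsf7, an SR protein that also serves as an adaptor for mRNA export, had 101 and 99.3 against 77.5 and 71.0 CPM, then 182 and 214 against 128 and 160.0 CPM, then 214 and 216 against 166 and 126 CPM. The second MERVL-KD library was the lower one at the 2-cell and 8-cell stages and the higher one at the 4-cell stage. The changes of Srsf7 were -0.35 ± 0.10, -0.46 ± 0.12 and -0.55 ± 0.12 (adjusted p = 0.0263, 0.0342 and 0.0246). Of all genes tested at every stage 1.24% were lower at all 3, and 4 of the 65 splicing genes were. With Srsf2, 5 were lower at 2 or more stages, as were 4.2% of all genes. None of the 65 was higher at more than 1 stage, where 1.89% of all genes were higher at 2 or more and 0.258% at all 3. Unlike Prpf18, both Hnrnpc and Srsf7 lost the call when particular libraries were left out. Hnrnpc lost it without MERVL-KD replicate 1 at the 2-cell stage, control replicate 1 at the 4-cell stage, and either control replicate at the 8-cell stage, where its adjusted p ranged up to 0.154. Srsf7 lost it without control replicate 1 or MERVL-KD replicate 2 in 2-cell embryos, and without control replicate 2 or MERVL-KD replicate 1 in 4-cell embryos, where it reached 0.217.

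**Figure D1:**
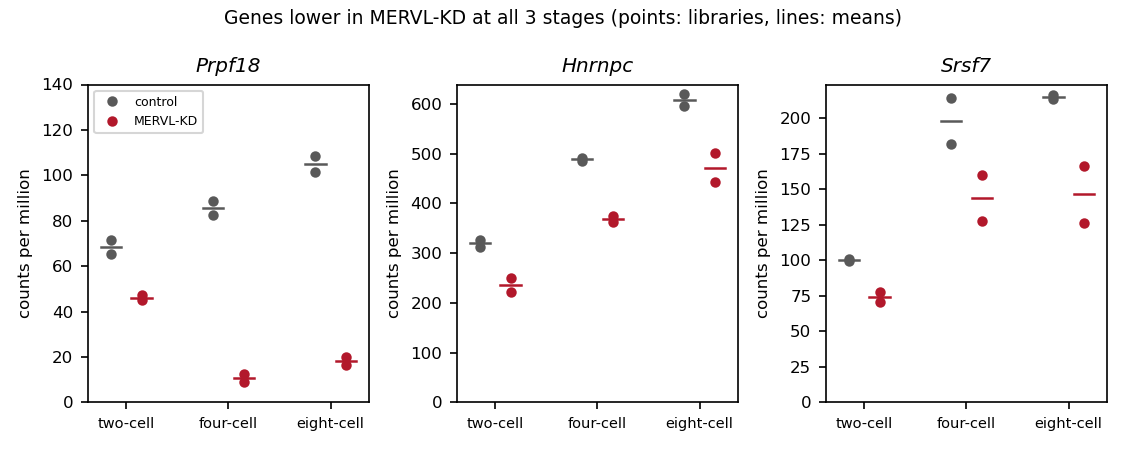
CPM of Prpf18, Hnrnpc and Srsf7 (vertical axes, each starting at 0) in each library at the 2-cell, 4-cell and 8-cell stages, with points for libraries and lines for the mean of 2. The MERVL-KD points lie below the control points in every panel and stage, and Prpf18 is down to 8.91 to 12.3 CPM in 4-cell embryos.

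At the 2-cell stage 17 of the 65 splicing genes were lower in MERVL-KD embryos and 1 was higher, where 7.39% of all 20604 genes tested were lower and 6.7% higher (14.1% in either direction). None changed by 2-fold, a size that 2.24% of all genes passed downwards and 4.37% upwards. The median change was -0.18 over the splicing genes and 0.01 over all genes, and 51 of the 65 changes were negative. This direction depends on the scaling. With library size alone the median of all genes moved up to 0.30 and that of the splicing genes to 0.11. On that scale 4 splicing genes were lower and 13 higher, beside 690 and 4329 of all 20604 genes. The splicing genes stayed 0.19 below all genes on either scale. The summed level of the 5 oocyte markers was lower in the same MERVL-KD libraries, at 528 and 602 CPM against 944 and 838 CPM in control, as was that of 5 markers of 2-cell embryos, at 246 and 295 against 498 and 417 CPM, and their part in the result was not tested. Each library pooled 30 embryos, so fewer cells holding a transcript and less of it per cell cannot be told apart. CPM are relative to the library total and do not give amounts per embryo. Leaving out 1 library gave medians from -0.24 to -0.13 over the splicing genes and from 0.00 to 0.04 over all genes. Library size alone ended the 2-cell calls of Prpf18, Srsf2, Hnrnpul1, Hnrnpc and Srsf7, and at later stages those of Srsf7, of Hnrnph1 in 4-cell and of Hnrnpc and Snrpd3 in 8-cell embryos.

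Of the 13 Snrp genes, Snrpert included, 2 fell at the 2-cell stage. Snrpc, the U1 protein that stabilises pairing with the 5′ splice site, had 204 and 227 CPM in control and 130.1 and 139 CPM in MERVL-KD libraries, a change of -0.59 ± 0.09 (adjusted p = 0.00029). Snrpb2, which encodes the U2 protein B″, had 29.5 and 29.0 against 17.4 and 14.7 CPM, a change of -0.78 ± 0.15 (adjusted p = 0.002) and the largest fall of the stage among these genes. Neither pair of groups overlapped, and 33.7% of all genes tested also lay wholly lower in MERVL-KD at this stage. Of the Sm proteins, which form the ring around most spliceosomal snRNAs, none passed, with changes from -0.48 for Snrpf to 0.37 for Snrpb. None of the 9 Sf3 genes passed either in edgeR, where 2 had an unadjusted p under 0.05, with changes from -0.32 for Sf3b3 to 0.44 for Sf3a2.

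The Prpf genes had the lowest median of the 5 families at this stage, -0.34, and 5 of 13 fell. Besides Prpf18 these included Prpf4b, Prpf38a and Prpf38b. Prpf4b, a kinase that phosphorylates tri-snRNP proteins, had 115 and 128 CPM in control and 75.9 and 78.4 CPM in MERVL-KD, a change of -0.57 ± 0.09 (adjusted p = 0.000686). Prpf38a, which joins the spliceosome before activation, and its relative Prpf38b changed by -0.34 ± 0.09 and -0.38 ± 0.09. Prpf8, the scaffold at the catalytic centre, had 150.5 and 159 against 156 and 145 CPM, with overlapping groups.

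Of the 10 SR genes tested, 3 fell and 1 rose. Srsf2 (SC35), an activator that binds many exonic enhancers, had 77.9 and 78.6 CPM in control and 52.7 and 52.6 CPM in MERVL-KD, a change of -0.49 ± 0.10 (adjusted p = 0.00398). Srsf11 fell by 0.35 ± 0.10 on the log2 scale, close to Srsf7. Srsf9 was the gene that rose, from 18.3 and 22.2 CPM to 30.0 and 24.3 CPM, by 0.51 ± 0.15 (adjusted p = 0.0384). That call was lost without control replicate 1 or MERVL-KD replicate 1, at changes of 0.37 and 0.33, and in 1 fit of all 12 libraries.

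The hnRNP genes gave 7 of the 17 falls, out of 20. Hnrnpul1, related to the nuclear scaffold protein hnRNP U, had 124 and 150.4 CPM in control and 84.1 and 95.2 CPM in MERVL-KD, a change of -0.53 ± 0.10 (adjusted p = 0.00271). Hnrnpll, a regulator of alternative exons in lymphocytes, had 26.8 and 33.3 against 16.6 and 18.3 CPM (-0.70 ± 0.15, adjusted p = 0.00465). The others were Hnrnpd, Hnrnph3, Hnrnpc, Hnrnpf and Hnrnpa2b1, with changes between -0.53 and -0.27. Hnrnpa2b1, which turned to 0.02 with library size alone, had 278 and 301 against 232 and 221 CPM. Hnrnpl, Hnrnpk, Hnrnpm and Hnrnph1 did not pass, with changes from -0.01 to 0.17. The others that did not pass were more negative, down to -0.46 for Hnrnph2, and 17 of the 20 changes lay below 0.

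**Figure D2:**
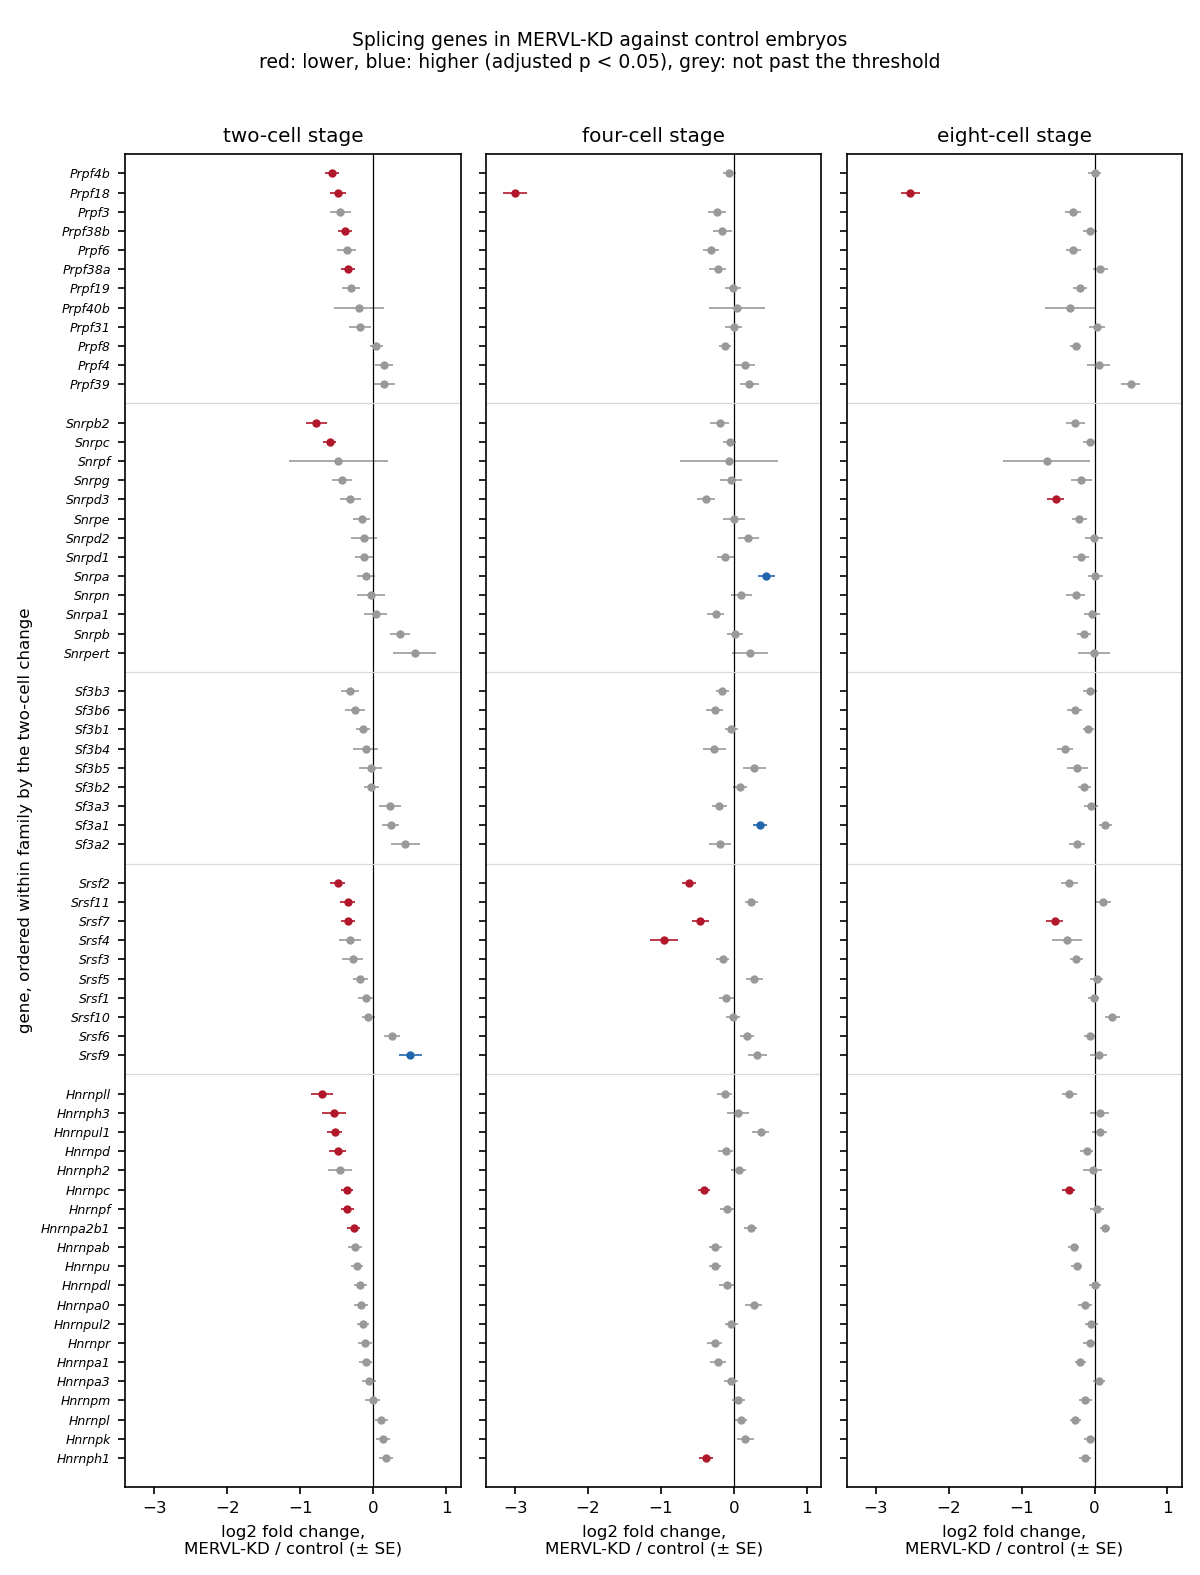
Log2 fold change of MERVL-KD against control (horizontal axis, points with bars of 1 standard error) for 64 of the 65 tested genes (rows, by family) at the 3 stages. Red points (lower) number 16, 6 and 4 from left to right and blue points (higher) 1, 2 and 0, with Prpf18 alone beyond -2 at the later stages.

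By the 4-cell stage most of these differences no longer passed. There, 7 of 65 splicing genes were lower and 2 higher, against 5.84% and 4.92% of the 19738 genes tested (10.8% in either direction). The median change was -0.06 beside 0.03 over all genes. Prpf18 was among 2 genes past 2-fold, a size reached by 1.88% of all genes downwards and 2.66% upwards. Falls of less than 2-fold were in Srsf2, Srsf4, Hnrnpc, Hnrnph1 and Srsf7. Srsf2 kept a difference, at 151 and 160.1 CPM in control against 94.8 and 107 CPM (-0.62 ± 0.10, adjusted p = 0.0028). Srsf4 (SRp75), one of the larger SR proteins, had 15.9 and 15.4 against 8.18 and 7.89 CPM (-0.96 ± 0.19, adjusted p = 0.00842). Hnrnph1, which binds G-rich stretches near splice sites, had 304 and 326 against 225 and 258 CPM (-0.38 ± 0.10, adjusted p = 0.0288).

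Higher in 4-cell embryos were 2 genes for proteins of U1 and U2. Sf3a1, the largest SF3A subunit of the U2 snRNP, had 130.2 and 139 CPM in control and 168 and 177 CPM in MERVL-KD (0.36 ± 0.09, adjusted p = 0.0317). Snrpa, the U1 protein that holds a loop of the U1 snRNA, had 41.3 and 43.3 against 56.1 and 58.6 CPM (0.45 ± 0.12, adjusted p = 0.0338). Neither pair of groups overlapped, and 28.0% of all genes tested also lay wholly higher in MERVL-KD at this stage. Both calls were lost without either control replicate or MERVL-KD replicate 2. That of Sf3a1 was also lost in 1 fit of all 12 libraries (adjusted p = 0.0557). Over the 4-cell comparison the median of the splicing genes was -0.08 and -0.06 without control replicate 1 or 2, beside 0.07 and 0.05 over all genes. Without MERVL-KD replicate 1 or 2 that median was -0.02 and -0.12, beside 0.00 and 0.01. The call of Hnrnph1 was lost without either control replicate or MERVL-KD replicate 1.

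At the 8-cell stage 5 of 65 splicing genes were lower and 0 higher, where 3.56% of 18414 genes were lower and 1.5% higher (5.06% in either direction). Past 2-fold was Prpf18 alone, beside 1.06% of all genes downwards and 0.641% upwards. Unadjusted p-values under 0.05 were found for 19 of the 65, and DESeq2 called 1 as higher. Beside Prpf18, Srsf7 and Hnrnpc the lower genes by edgeR included Snrpd3, a protein of the Sm ring. It had 63.9 and 60.8 CPM in control and 41.8 and 44.0 CPM in MERVL-KD, a change of -0.53 ± 0.11 (adjusted p = 0.0211), and the call was lost without control replicate 1. At the earlier stages Snrpd3 had been at 28.0 and 25.8 against 19.6 and 21.3 CPM and at 55.4 and 52.7 against 40.1 and 42.7 CPM, without passing. Prpf39, a U1-associated protein, had 39.8 and 51.3 CPM in control and 63.8 and 63.9 CPM in MERVL-KD (0.50 ± 0.13, adjusted p = 0.0551). The median change was -0.12, beside 0.01 over all genes, and it was 0.00 with library size alone, which moved the median of all genes to 0.13. Leaving out MERVL-KD replicate 1 or 2 gave medians of -0.08 and -0.19 over the splicing genes, beside -0.01 over all genes in both fits. Markers of later cleavage (Pou5f1, Nanog, Gata6, Cdx2, Tead4, Krt8, Krt18) summed to 565 and 628 CPM in MERVL-KD and 793 and 748 CPM in control at this stage, and their part in the result was not tested.

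Whether the effect of MERVL-KD changed between stages was tested as an interaction in 1 fit of the 12 libraries. Between the 2-cell and 4-cell stages it moved upwards for 7 of 65 splicing genes and downwards for 1, Prpf18, where 2.51% and 1.64% of the 24040 genes tested did so (4.16% in either direction, and by 2-fold 1.27% upwards and 1.03% downwards). For Hnrnpul1 the shift was 0.98 ± 0.17 (adjusted p = 0.00158), from the fall given above to 91.2 and 111 CPM in MERVL-KD against 77.9 and 79.2 CPM in control. For Hnrnpa2b1 it was 0.58 ± 0.12 (adjusted p = 0.00907), to 812 and 868 against 754 and 681 CPM. Snrpc shifted by 0.61 ± 0.14, Prpf4b by 0.58 ± 0.14, Srsf11 by 0.67 ± 0.16 and Hnrnpll by 0.66 ± 0.18, each being lower at the 2-cell stage and not past the threshold at the 4-cell stage. Snrpa, higher at the 4-cell stage, shifted by 0.62 ± 0.17 (adjusted p = 0.0479), a call lost in 7 of the 8 fits that left out a library. With library size alone the median shift of all genes went from 0.05 to -0.25. There, 1 splicing gene moved upwards and 7 downwards, beside 225 and 1275 of all 24040 genes. Prpf18 and Hnrnpul1 kept their calls on that scale and in each of the 8 fits that left out a library. The calls of Hnrnpa2b1, Snrpc, Prpf4b, Srsf11, Hnrnpll and Snrpa were lost on that scale. They were also lost without MERVL-KD replicate 2 of the 4-cell stage, where 1 gene moved upwards and 3 downwards. Between the 4-cell and 8-cell stages 1 of 65 differed, upwards, beside 0.275% of all genes upwards, 0.349% downwards and 0.624% in either direction (0.141% and 0.279% by 2-fold). From the 2-cell to the 4-cell stage the total of 8 became 3 without control replicate 2 of the 2-cell stage or control replicate 1 of the 4-cell stage, and became 4 without MERVL-KD replicate 1 of the 2-cell stage or control replicate 2 of the 4-cell stage.

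In control embryos most of the splicing genes rose from the 2-cell to the 4-cell stage. There were 48 of 65 higher and 8 lower at the 4-cell stage, against 30% and 31.9% of 21175 genes (61.9% in either direction). By 2-fold or more 27 were higher and 2 lower, beside 23.3% and 26.7% of all genes. The median change was 0.72 beside -0.03 over all genes. This comparison shares its control libraries with those above. By family, 8 of 9 Sf3, 10 of 13 Snrp, 15 of 20 Hnrnp, 9 of 13 Prpf and 6 of 10 Srsf genes rose, with medians of 1.36, 0.90, 0.66, 0.59 and 0.70. The share of gene counts taken by the 66 genes went from 0.877% and 0.918% at the 2-cell stage to 1.62% and 1.60% at the 4-cell stage and 1.68% and 1.70% at the 8-cell stage.

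The Sf3 genes of the U2 snRNP had the highest median of the 5 families. Sf3a2 climbed from 6.50 and 6.94 CPM to 47.0 and 53.2 CPM, 7.57-fold (2.92 ± 0.13, adjusted p = 2.45e-10). Sf3b3, an SF3B subunit, went from 37.3 and 41.6 to 183 and 192 CPM, 4.82-fold (2.27 ± 0.09, adjusted p = 9.58e-11). Sf3a3 rose 4.06-fold, Sf3b4 3.05-fold and Sf3b1, the subunit that grips the branch site, 2.57-fold. Sf3b5, a small SF3B subunit, did not pass, at 14.9 and 15.5 against 17.8 and 16.8 CPM. Within the Sf3 genes the changes thus ran from 0.21 for Sf3b5 to 2.92 for Sf3a2.

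Among Sm and snRNP proteins, Snrpb rose 5.12-fold, from 21.7 and 21.9 CPM to 110.3 and 109 CPM (2.36 ± 0.10, adjusted p = 1.5e-10). Its close relative Snrpn, an imprinted gene, rose 2.84-fold, and Snrpd2, Snrpa1 and Snrpd3 rose by 2.47, 2.41 and 2.04-fold. Snrpg fell, from 33.4 and 33.5 to 25.6 and 25.3 CPM, a call lost in each of the 4 fits that left out a library. Snrpa and Snrpf did not pass. The processed pseudogene Snrpert rose 2.30-fold from 2.30 and 3.03 CPM, and as only unique alignments were counted, its reads and those of Snrpe may be split or lost between near-identical copies. Snrpf had only 0.404 to 1.31 CPM over the libraries.

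Among the Prpf genes, Prpf8 rose 3.63-fold, from 150.5 and 159 CPM to 558 and 549 CPM (1.86 ± 0.08, adjusted p = 1.24e-10). Prpf6, which bridges U5 and U4/U6, rose 3.04-fold and Prpf31, which binds U4, 3.01-fold. Prpf18 rose by 1.27-fold in the same control embryos, a call lost in 2 of the 4 fits that left out a library. Prpf38a fell, from 106 and 102 to 70.0 and 79.6 CPM.

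SR proteins moved both ways. Srsf3, the smallest of them, rose 4.48-fold from 46.0 and 38.3 CPM to 193 and 178 CPM (2.16 ± 0.12, adjusted p = 1.2e-09). Srsf6 rose 3.90-fold and Srsf9 3.11-fold. Srsf10, which represses splicing when dephosphorylated, fell 2.50-fold from 214 and 235 to 90.3 and 86.2 CPM (-1.32 ± 0.10, adjusted p = 2.72e-08). Srsf4 and Srsf5 also fell, at changes of -0.59 ± 0.17 and -0.29 ± 0.10. Their calls were lost in 1 and 2 of the 4 fits that left out a library.

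Of the hnRNPs, Hnrnpll rose 3.43-fold, and Hnrnpa1, Hnrnpa2b1, Hnrnpa3, Hnrnph1, Hnrnph2, Hnrnpl and Hnrnpm rose by 2.36 to 2.66-fold. Hnrnpa1, the abundant repressor that competes with SR proteins, went from 326 and 347 to 827 and 886 CPM. Hnrnpul2 fell 2.56-fold, from 437 and 428 to 169 and 164 CPM (-1.36 ± 0.09, adjusted p = 6.91e-09), and Hnrnpul1 and Hnrnpdl fell by 0.78 and 0.35 on the log2 scale.

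From the 4-cell to the 8-cell stage 23 of 65 splicing genes rose and 0 fell, against 4.88% and 3.63% of genes (8.51% in either direction). None passed 2-fold, beside 0.604% of all genes upwards and 1.38% downwards. Unadjusted p-values under 0.05 were found for 40 of the 65, and DESeq2 called 0 as lower. Hnrnpa1 went to 1193 and 1221 CPM (0.51 ± 0.07, adjusted p = 0.00145), Hnrnpa2b1 from 754 and 681 to 996 and 1016 CPM (0.50 ± 0.08, adjusted p = 0.00296), and Srsf6 from 164 and 174 to 225 and 243 CPM (0.48 ± 0.09, adjusted p = 0.00565). Hnrnpl, Hnrnpa0 and Prpf8 followed with changes of 0.45, 0.46 and 0.36. The Prpf family gave 1 of the 23. This count rests on each library, since 9, 8, 6 and 2 genes passed without control replicate 1 or 2 of the 4-cell stage and replicate 1 or 2 of the 8-cell stage. With library size alone 2 rose and 4 fell, beside 371 and 2062 of all 21175 genes. The median of all genes moved from 0.00 to -0.21 on that scale, and the splicing genes stayed 0.29 above it.

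**Figure D3:**
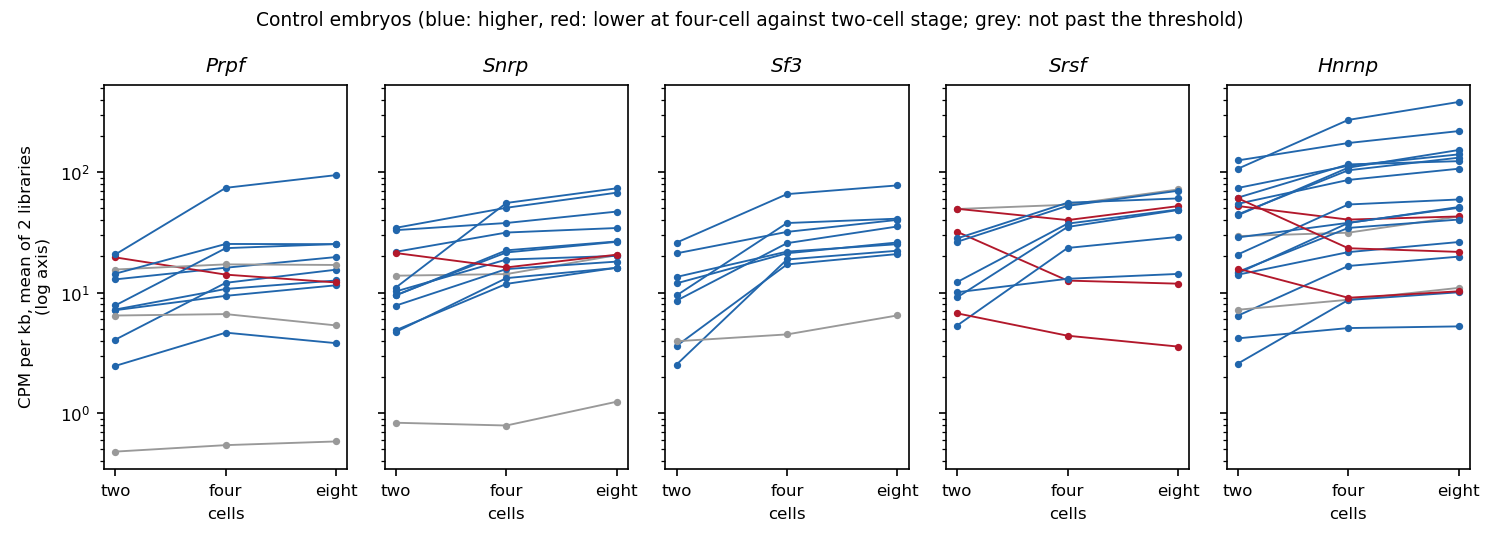
Level of 64 tested genes (vertical log axis, CPM per kilobase of exon, mean of 2 control libraries) at the 2-cell, 4-cell and 8-cell stages (horizontal axis), 1 line per gene and 1 panel per family. Blue lines (47) rose and red lines (8) fell from the 2-cell to the 4-cell stage, and all but 1 of the Sf3 lines are blue.

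Compared per kilobase of exon, the levels spread widely within each family. In control 2-cell embryos Hnrnpab was the highest hnRNP at 117 and 134 CPM per kb, and Hnrnpll the lowest at 2.30 and 2.85. Hnrnpa1, at 103 and 110 CPM per kb, lay just below Hnrnpab and passed it at the 4-cell stage with 262 and 281 against 172 and 177. Among Prpf genes Prpf40b was last at 0.450 and 0.509 CPM per kb, and by the 8-cell stage Prpf8 led, at 92.6 and 96.7. Srsf5 and Srsf1, at 45.2 to 54.1 and 44.7 to 54.2 CPM per kb, could not be ordered within their spread, and Srsf3 was the lowest SR gene tested, at 4.85 and 5.82, above the untested Srsf12 at 0 and 0.0608. Sf3b1 and Sf3a2 bounded the Sf3 genes at 25.4 to 26.6 and 2.45 to 2.61 CPM per kb. Snrpe, at 32.7 and 36.4, overlapped Snrpc, at 31.3 and 34.8, as the highest Snrp genes, and Snrpf was lowest at 0.480 and 1.19.

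As shares of all gene counts, with no scaling factor, the Prpf genes summed to less in MERVL-KD at every stage. They took 0.132% in both control 2-cell libraries and 0.115% and 0.107% in MERVL-KD, then 0.247% and 0.244% against 0.200% and 0.197%, then 0.229% and 0.228% against 0.208% and 0.207%. Splitting the family by the test does not show where this gap lay. A smaller gap among the rest is built in, because these same libraries picked the Prpf genes that passed. The 11 that did not took 0.172% in both control libraries against 0.168% in both MERVL-KD libraries at the 4-cell stage, and 0.172% and 0.170% against 0.170% in both at the 8-cell stage. In 2-cell embryos the 8 that did not pass overlapped between groups, at 0.0445% and 0.0440% against 0.0482% and 0.0444%. The Snrp genes were lower at the 2-cell stage, at 0.0609% and 0.0631% against 0.0553% and 0.0539%, overlapped at the 4-cell stage and stood at 0.113% and 0.112% against 0.112% in both MERVL-KD libraries at the 8-cell stage. For Srsf and Hnrnp genes the groups overlapped at all 3 stages, and for Sf3 genes at the 2-cell and 8-cell stages. The Sf3 share was higher in 4-cell MERVL-KD embryos, at 0.206% and 0.212% against 0.203% and 0.202%. All 66 genes together overlapped between groups in 2-cell embryos, where MERVL-KD libraries gave 0.891% and 0.826% beside control shares of 0.877% and 0.918%. Their total was lower in 4-cell MERVL-KD embryos (1.50% and 1.59%, control 1.62% and 1.60%) and overlapped in 8-cell embryos. No test was made on these shares.

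**Figure D4:**
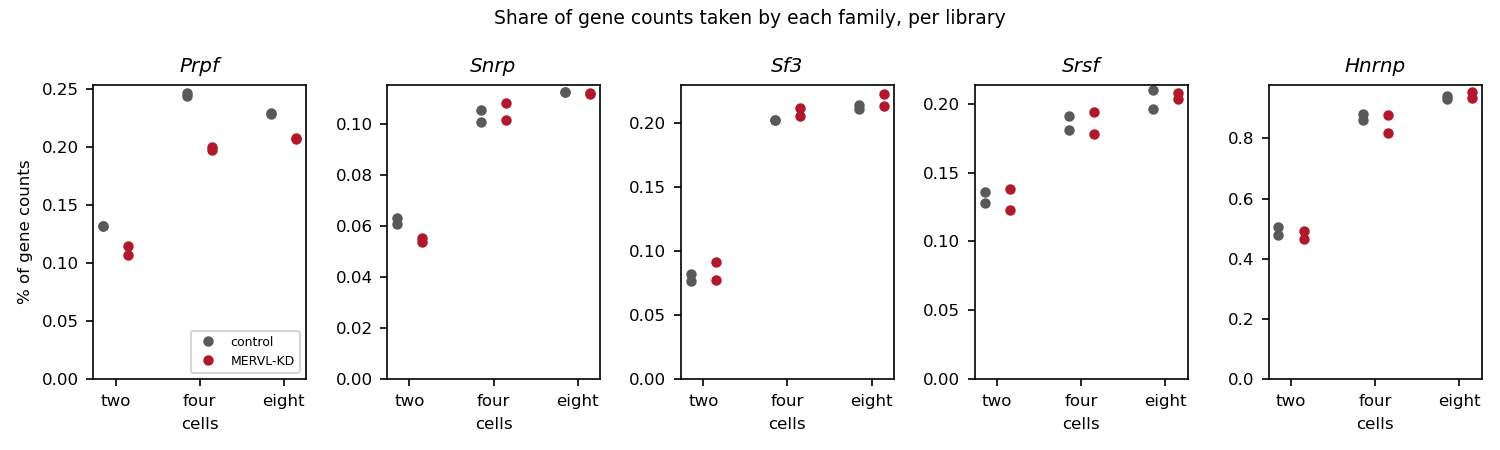
Percent of gene counts (vertical axes, each starting at 0) taken by each family in each library, control in grey and MERVL-KD in red, at the 2-cell, 4-cell and 8-cell stages (horizontal axis). The red Prpf points lie below the grey ones at every stage, while red and grey Srsf points overlap.

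A list of 97 other splicing genes, outside the 66, was set beside them. At the 2-cell stage 20 of the 96 tested were lower in MERVL-KD and 3 higher, at the 4-cell stage 12 of 95 lower and 5 higher, and at the 8-cell stage 7 of 94 lower and 1 higher. Over all genes the shares were 7.39% lower and 6.7% higher, then 5.84% and 4.92%, then 3.56% and 1.5%, and the 5 higher at the 4-cell stage are near the share over all genes. Of 21 snRNP partners 4 fell and 1 rose at the 2-cell stage. The fall with the smallest p was in Snrnp70, another protein specific to U1, at 108 ± 10 (SD, n = 2) CPM in control and 73.0 ± 2.4 in MERVL-KD (-0.48 ± 0.10). Snrnp48 rose there, and Sart1, a tri-snRNP protein, fell at the 4-cell and 8-cell stages. Of 7 genes for branch site recognition, U2surp fell at the 4-cell and Puf60 at the 8-cell stage. Of 15 genes of the complex around Prpf19 4 fell in 2-cell and 2 in 4-cell embryos, with the smallest p for Crnkl1 both times (-0.43 ± 0.11 and -0.36 ± 0.09).

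Of 7 spliceosomal helicases, Dhx15, which takes spliceosomes apart, stood at 121 ± 0.55 (SD, n = 2) CPM in control and 56.8 ± 0.81 in MERVL-KD 2-cell embryos (adjusted p = 3.44e-06). At the 4-cell stage it changed by -0.72 ± 0.09. Dhx16 was the helicase with the smallest p at the 8-cell stage. Of 15 SR kinases and SR-related genes 4 fell at the 2-cell stage, led by Pnn, a protein of nuclear speckles, at 273 ± 9.7 against 117 ± 17 CPM (SD, n = 2; -1.14 ± 0.10, adjusted p = 1.71e-06). Dyrk1a led 3 falls at the 4-cell stage, Pnn among them, and Srpk1 was the one that fell at the 8-cell stage. Neither Dhx15 nor Pnn held a MERVL ASO site with up to 2 mismatches.

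Among 31 other regulators, 7 fell and 2 rose at the 2-cell stage, with Qk lower (-0.52 ± 0.08) and Mbnl3 higher (1.21 ± 0.23). Rbfox2, a regulator that binds GCATG, fell at the 4-cell and 8-cell stages, by 1.10 ± 0.16 and 0.83 ± 0.16 on the log2 scale. Pcbp2 was the riser with the smallest p at the 4-cell stage (0.46 ± 0.10), and Tia1 rose at the 8-cell stage (1.31 ± 0.32). In control embryos 53 of the 96 rose and 20 fell from the 2-cell to the 4-cell stage, beside 30% and 31.9% of all genes. Esrp2, an epithelial regulator, went from 2.62 ± 0.75 to 91.2 ± 5.7 CPM (SD, n = 2), and Ptbp2, a repressor known from neurons, from 218 ± 5.8 to 24.9 ± 3.3 CPM. Eftud2, the U5 GTPase, rose by 3.49 ± 0.14, Ddx23, the U5 helicase, by 2.80 ± 0.11, Xab2 by 2.51 ± 0.13 and Cherp by 1.24 ± 0.08. Srpk2, which phosphorylates SR proteins, fell by 2.55 ± 0.10 on the log2 scale. From the 4-cell to the 8-cell stage 18 rose and 4 fell, beside 4.88% and 3.63% of all genes, and Ptbp1 rose from 275 ± 39 to 550 ± 62 CPM.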

How the data were processed

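The 12 total RNA-seq libraries were used, and the ATAC-seq libraries were not analysed here. The authors aligned reads with STAR 2.5.3a to GRCm38, kept unique alignments and deposited raw counts per GENCODE vM25 gene and RepeatMasker family from featureCounts. Between 71.8% and 74.7% of counts from 1 to 50 were even, as when both mates are counted. Counts as deposited were filtered with filterByExpr, scaled by TMM and tested with edgeR 4.0.16 (R 4.3.3), with robust quasi-likelihood fits stage by stage, over 6 control libraries for stages and over 12 for interactions. P-values were adjusted over all features. DESeq2 1.42.0, other scalings and filters, the replicate block and leaving out each library were alternatives. The labels do not say whether replicates came from separate injections, so p-values measure the spread between these libraries, which may be technical. The scripts were tested on simulated data. One gene is not reported here by name. The members and lists were chosen with earlier results of these data known. Named members are those past 2-fold, the 6 smallest p-values in each direction, those called at several stages and the extremes of level. ASO sequences came from the study's oligonucleotide table, and gene models from GENCODE vM21.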

Additional observations from a re-analysis of the deposited data

Results flagged for a closer look

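Between the 2-cell and 4-cell stages the effect of MERVL-KD differed for 8 splicing genes by the interaction test. These were Prpf18 (-2.44), Hnrnpul1 (0.98), Hnrnpa2b1 (0.58), Snrpc (0.61), Srsf11 (0.67), Prpf4b (0.58), Hnrnpll (0.66) and Snrpa (0.62), as differences of log2 fold changes. Only Prpf18 and Hnrnpul1 kept the call with library size alone and in every fit that left out a library.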

How the results depend on the processing

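Of the 120 changes called among the splicing genes, the direction turned in 1 of 1689 refits, for Hnrnpa2b1 at the 2-cell stage with library size alone (0.02), and the call was lost in 246. The 2-fold rule left 0, 2 and 1 splicing genes in MERVL-KD against control in stage order, 29 and 0 in the control steps, and 1 and 0 in the interactions. For the 8-cell stage DESeq2 and a filter of 1 count gave 8 each. Between control 4-cell and 8-cell embryos library size alone gave 6 and 1 fit of 12 libraries 13. With 1 library left out, 12 to 19, 5 to 12 and 4 to 14 genes passed in MERVL-KD, 51 to 55 and 2 to 9 in the control steps, and 3 to 10 and 0 to 1 in the interactions, where leaving out libraries was chosen after seeing the data. Same-numbered replicates showed little shared deviation over all genes (r = -0.037, 0.00676 and 0.0225). Noise in weakly expressed genes lowers such a correlation, so it cannot exclude that the numbers pair the samples. The replicate block gave 15, 8 and 9 genes in MERVL-KD. It left out Hnrnpa2b1, Srsf11 and Srsf9 at the 2-cell stage (adjusted p of 0.0818, 0.0537 and 0.0553 by edgeR) and Snrpa at the 4-cell stage (0.052). Halving the counts, also chosen after seeing the data, gave 20, 10 and 6. In 1 fit of 12 libraries 25 splicing genes were lower at the 2-cell stage, beside 1365 of all 24040 genes. The causes were not tested. With 2 libraries a group, small changes could be missed.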
